A study of Mus musculus with 23 samples.

Results

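The 10 genes described here encode the main vascular growth factor, its receptors, the angiopoietin and Tie system and the surface and junction proteins of blood vessel lining. They are Vegfa, Kdr, Flt1, Tek, Tie1, Angpt2, Pecam1, Cdh5, Cldn5 and Robo4. They were chosen by symbol from a count table of 48397 gene symbols, and all 10 had a row. The study sequenced polyA RNA of cells sorted from Met1-iRFP breast tumours of FVB mice. Met-1 is a mammary tumour cell line from an FVB mouse with a polyoma middle T transgene, and the fluorescent protein iRFP marks the tumour cells. The iRFP-negative cells are called tumour microenvironment (TME) cells and the iRFP-positive cells cancer cells. There were 4 TME libraries from exercised mice, 4 TME libraries from sedentary mice, 7 cancer libraries from exercised mice and 8 cancer libraries from sedentary mice. All 4 groups carry the same tumour line and strain, and the sedentary mice are the controls. The form and length of the exercise, the age of the mice and whether each library is 1 animal were not given in the sources used here, so the p-values measure the spread between libraries.

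Vessels grow when vascular endothelial growth factor A (VEGF-A, from Vegfa), often released by cells short of oxygen, binds the receptor VEGFR2 (from Kdr) on endothelial cells. VEGFR1 (from Flt1) binds the same ligand tightly, and its soluble form takes ligand away from VEGFR2. Angiopoietin-2 (from Angpt2) loosens vessels by acting on the receptor TIE2 (from Tek), whose partner is TIE1. PECAM-1, VE-cadherin (from Cdh5), claudin-5 and ROBO4 hold endothelial cells together or steady the vessel wall.

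Total counts per library were 16307545 to 37388479 in TME cells and 15924340 to 25563245 in cancer cells. Levels are counts scaled to the library total (CPM) with edgeR's trimmed mean of M values (TMM) as scaling. The labels were checked against marker lists. All 15 endothelial markers, 7 of which are among the 10 genes, and all 8 pan-leukocyte markers tested were higher in TME cells at an adjusted p under 0.05, the threshold used throughout. Of all genes tested, 25.3% were higher and 27.3% lower in TME cells. The 9 epithelial and tumour markers, in contrast, summed to 231 to 534 CPM over the TME libraries and to 282 to 549 CPM over the cancer libraries, so their sums overlapped between the sorts. Of the 6 of them that were tested, 1 was higher and 1 lower in TME cells. Whether the TME sort also held tumour cells without iRFP was not tested. Similar levels in both sorts, as for Vegfa and Flt1 below, are given with that limit.

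Library 4 of the sedentary TME group stood apart before any comparison. Its mitochondrially encoded share of counts was 42.2% (2.61% to 14.5% for the remaining TME libraries), with a TMM factor of 0.655. Its 15 endothelial markers summed to 546 CPM, against 116 to 148 CPM in the other 3 sedentary TME libraries, a ratio of 4.17. Other cell types did not stand apart to that extent. The ratio was 0.899 for mural, 0.705 for fibroblast, 1.15 for pan-leukocyte, 0.938 for macrophage and 1.13 for epithelial and tumour markers. It was 1.38 for neutrophil, 1.29 for megakaryocyte and platelet and 1.72 for erythroid markers. Adipocyte and skeletal muscle markers, with sums of at most 23.6 and 3.74 CPM in sedentary TME libraries, had ratios of 0.486 and 1.96. Library 4 also had the fewest genes detected of all 23 libraries, 18307. Leaving the mitochondrial genes out of totals, scaling and tests barely moved the exercise differences in TME cells, with log2 values of -1.03 for Kdr and -1.76 for Cldn5 either way. The TMM factor already adjusts for that share, so little change could arise. Why library 4 stands apart was not tested. Results on the 10 genes that involve the sedentary TME group are given with and without this library.

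**Figure D1:**
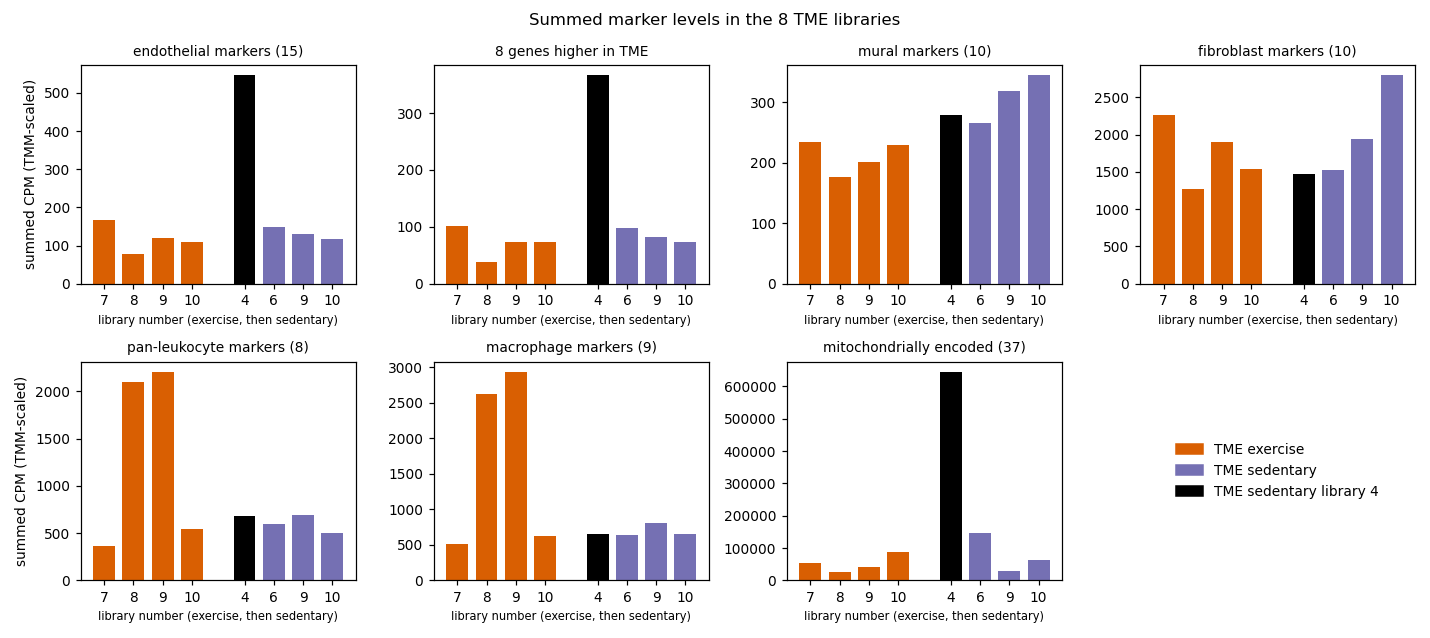
Summed CPM of marker lists in each of the 8 TME libraries (vertical axis from 0; exercised libraries 7 to 10 left, sedentary libraries 4, 6, 9 and 10 right; the number of genes in a list in its title). Sedentary library 4 (black) has 546 CPM of endothelial markers against at most 167 in any other TME library, while the pan-leukocyte sums of exercised libraries 8 and 9 are 2097 and 2206 CPM.

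Promoters of 7 of the 10 genes were found in RefSeq's table (build GRCm38.p6); Angpt2, Pecam1 and Cdh5 were not. The 200 bases that end 11 bases before the RefSeq transcription start are printed for 5 genes, the 2 not called between the sorts (Vegfa, Flt1) and 3 that were higher in TME cells (Kdr, Tek, Cldn5). Capitals mark GGAA or its reverse complement TTCC, the core recognised by ETS factors, a family with known roles in endothelial genes.
Vegfa, chr17:46032388-46032587, minus strand: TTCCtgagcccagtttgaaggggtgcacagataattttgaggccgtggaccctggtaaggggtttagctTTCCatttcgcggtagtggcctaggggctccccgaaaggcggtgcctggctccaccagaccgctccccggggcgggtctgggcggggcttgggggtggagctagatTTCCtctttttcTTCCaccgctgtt
Flt1, chr5:147726022-147726221, minus strand: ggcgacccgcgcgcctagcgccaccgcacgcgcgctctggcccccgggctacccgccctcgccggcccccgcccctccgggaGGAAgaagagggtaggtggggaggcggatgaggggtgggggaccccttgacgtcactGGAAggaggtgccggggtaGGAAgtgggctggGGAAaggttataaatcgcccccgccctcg
Kdr, chr5:75978466-75978665, minus strand: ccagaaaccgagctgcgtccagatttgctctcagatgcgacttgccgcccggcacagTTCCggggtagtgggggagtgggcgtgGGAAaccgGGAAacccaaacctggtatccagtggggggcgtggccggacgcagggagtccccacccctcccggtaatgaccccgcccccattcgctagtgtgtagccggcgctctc
Tek, chr4:94739079-94739278, plus strand: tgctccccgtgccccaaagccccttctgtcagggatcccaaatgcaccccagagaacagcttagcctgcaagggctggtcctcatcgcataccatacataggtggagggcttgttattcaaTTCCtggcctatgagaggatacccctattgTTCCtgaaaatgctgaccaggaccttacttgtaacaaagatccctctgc
Cldn5, chr16:18776637-18776836, plus strand: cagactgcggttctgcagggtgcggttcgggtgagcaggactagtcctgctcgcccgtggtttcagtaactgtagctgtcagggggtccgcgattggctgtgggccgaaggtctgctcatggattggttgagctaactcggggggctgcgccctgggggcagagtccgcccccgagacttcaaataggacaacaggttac

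GGAA, searched on both strands, occurred 4 times in the windows of Vegfa and Flt1, 3 times in that of Kdr, 2 times in that of Tek and 0 times in that of Cldn5. The windows of Tie1 and Robo4, which hold the first bases of the GENCODE gene model and are not printed, had 5 and 3 matches. The motif is common: 88.9% of 32851 promoter windows of the same length held it, with a median of 2 matches, and 21.0% held 4 or more. The GC box GGGCGG occurred in the windows of Vegfa (2 matches), Kdr (2), Flt1 (3) and Cldn5 (1), and in 29.9% of all windows. The hypoxia response core ACGTG was in none of the 7 windows and in 13.8% of all windows. The GGAA counts of the genes higher in TME cells and of the 2 not called thus overlapped. A match is a string of letters and not a tested binding site.

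The first comparison asked which of these genes differed between the iRFP-negative and the iRFP-positive sort. Of the 10 genes, 8 were higher in TME cells (edgeR quasi-likelihood test on all 23 libraries, Benjamini-Hochberg adjustment over 17503 genes), as were 25.3% of all genes tested, while 27.3% of all genes were lower. All 8 were also called without sedentary TME library 4 and under each of the 18 alternatives. For the same 8, every TME library lay above every cancer library, which held for 5.19% of all genes tested. The median log2 difference of the 10 genes was 3.76 with all libraries and 3.38 without library 4, against -0.01 and 0.05 for all genes tested. In sorted bulk RNA, fewer endothelial cells and less RNA per endothelial cell cannot be told apart.

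**Figure D2:**
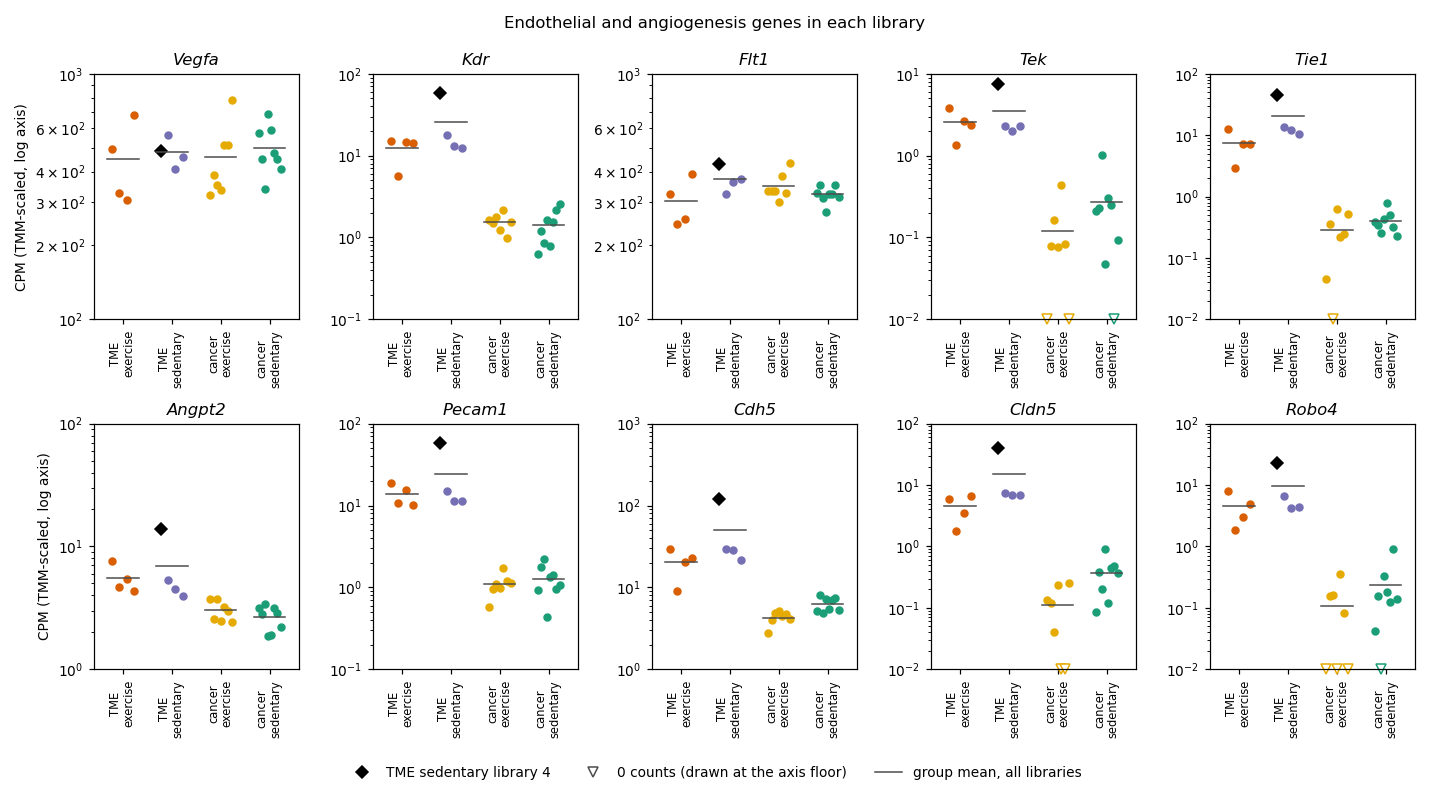
CPM of each gene in each library on log axes that differ between panels, with exercised before sedentary and TME before cancer groups; lines are group means over all libraries. Vegfa and Flt1 overlap between the sorts, the other 8 genes lie higher in every TME library, and sedentary TME library 4 (black diamonds) is the highest TME library in every panel but that of Vegfa.

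Vegfa (chr17:46016993-46032369, mm10), the ligand gene, was not called between the sorts. It had 492, 327, 307 and 678 CPM in exercised TME libraries 7, 8, 9 and 10, and 484, 561, 410 and 460 CPM in sedentary TME libraries 4, 6, 9 and 10. It ranged over 322 to 784 CPM in exercised cancer libraries (median 388) and over 339 to 687 CPM in sedentary cancer libraries (median 463). The 4 groups overlapped throughout. The log2 difference between TME and cancer cells was -0.04 ± 0.17 (SE; 95% interval -0.38 to 0.31) and 0.01 ± 0.18 without library 4. Per kilobase of exon, Vegfa had the highest mean level of the 10 genes in both sorts, with 108 ± 28.2 CPM per kilobase in TME cells (SD, n = 8) and 112 ± 31.5 CPM per kilobase in cancer cells (SD, n = 15).

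The 2 VEGF receptors differed from each other. Kdr (chr5:75932827-75978458) had 15.1, 5.69, 14.8 and 14.4 CPM in exercised TME libraries 7, 8, 9 and 10, and 58.9, 17.9, 13.03 and 12.3 CPM in sedentary TME libraries 4, 6, 9 and 10. In cancer cells it had 0.992 to 2.17 CPM in exercised libraries and 0.635 to 2.54 CPM in sedentary libraries. No TME library reached down to the cancer range, and the lowest was exercised library 8. Kdr was 11.9-fold higher in TME cells (log2 3.57 ± 0.27 SE, edgeR adjusted p = 2.89e-10) and 9.35-fold higher without library 4.

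Flt1 (chr5:147561604-147726011) did not separate the sorts. It averaged 338 ± 64.2 CPM in TME cells (SD, n = 8) and 335 ± 36.9 CPM in cancer cells (SD, n = 15). Exercised TME libraries 7, 8, 9 and 10 had 325, 245, 256 and 392 CPM, and sedentary TME libraries 4, 6, 9 and 10 had 429, 323, 364 and 373 CPM. Cancer libraries had 300 to 435 CPM in exercised mice and 274 to 352 CPM in sedentary mice, from 5317 to 9171 reads in each cancer library. The ranges of both sorts overlapped throughout. The log2 difference was 0.00 ± 0.08 (SE; 95% interval -0.16 to 0.17; edgeR adjusted p = 0.970), and 0.03 ± 0.08 without library 4. This value averages both treatments. In exercised mice Flt1 averaged 304 CPM in TME and 349 CPM in cancer cells. In sedentary mice the order was reversed, with 372 CPM (353 CPM without library 4) against 322 CPM. The interaction, given below, was not called. The gene-level counts do not separate the soluble from the membrane form of VEGFR1. Per kilobase of exon, the Kdr level was 0.055 of the Flt1 level at the median of the 7 TME libraries other than library 4, 0.205 of it in library 4, and 0.007 of it at the median of the 15 cancer libraries.

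Among the other VEGF ligands and co-receptors, 7 of 8 listed genes were in the table and tested, and 2 were higher and 2 lower in TME cells (3 and 2 without library 4). Shares of this size are near those of all genes, 25.3% higher and 27.3% lower. Flt4, the lymphatic VEGF receptor, was higher by 5.19 ± 0.48 log2 units (SE), and the co-receptor Nrp1 by 0.43 ± 0.11. The co-receptor Nrp2 was lower, with a log2 difference of -0.44 ± 0.08, and the ligand gene Figf (VEGF-D) with -0.67 ± 0.18. Vegfb, Vegfc and Pgf were tested and not called.

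The angiopoietin receptors were low in level, and near 0 in cancer cells. Tek (chr4:94739289-94874976) had 3.83, 1.36, 2.67 and 2.39 CPM in exercised TME libraries 7, 8, 9 and 10, and 7.58, 2.29, 2.03 and 2.28 CPM in sedentary TME libraries 4, 6, 9 and 10. The 15 cancer libraries held 65 Tek reads in all and 3 of them held none; their highest level was 1.02 CPM. Tek was higher in TME cells by 4.01 ± 0.46 log2 units (SE, edgeR adjusted p = 4.83e-08) and by 3.74 ± 0.45 without library 4.

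Tie1 (chr4:118471191-118490061) had 12.5, 2.94, 7.19 and 7.27 CPM in exercised TME libraries 7, 8, 9 and 10, and 45.9, 13.4, 12.3 and 10.6 CPM in sedentary TME libraries 4, 6, 9 and 10. It did not exceed 0.790 CPM in any cancer library. The log2 difference between the sorts was 5.17 ± 0.35 (SE, edgeR adjusted p = 4.67e-11) and 4.85 ± 0.31 without library 4. Exercised library 8 was again the lowest TME library.

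Angpt2 (chr8:18690263-18741562) showed the smallest of the 8 differences. It averaged 6.22 ± 3.31 CPM in TME cells (SD, n = 8; 5.12 ± 1.19 without library 4, n = 7) and 2.83 ± 0.591 CPM in cancer cells (SD, n = 15). It was 2.15-fold higher in TME cells (edgeR adjusted p = 1.55e-05) and 1.84-fold higher without library 4 (edgeR adjusted p = 2.45e-05). Angpt2 lies opposite Mcph1 on the other strand with no exon shared, and the strand setting of the counting was not given in the sources used here. Among all genes tested, 25.3% were higher and 27.3% lower in TME cells. Of 6 other genes of the pathway, 3 were higher in TME cells and none was lower, with and without library 4. They were Ptprb, the vascular endothelial phosphatase that acts on TIE2 (4.57 ± 0.34 log2 units, SE), the adaptor gene Dok2, which blood cells also express (3.52 ± 0.32), and Svep1 (3.41 ± 0.39), an extracellular protein with a role in lymphatic vessels.

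The junction and identity genes were likewise higher in TME cells. Pecam1 (chr11:106654217-106750628), an adhesion molecule of endothelium that leukocytes and platelets also carry, had 18.7, 10.8, 15.6 and 10.1 CPM in exercised TME libraries 7, 8, 9 and 10. It had 58.6, 15.1, 11.3 and 11.3 CPM in sedentary TME libraries 4, 6, 9 and 10, and 0.430 to 2.20 CPM in cancer libraries. The log2 difference was 3.94 ± 0.28 (SE, edgeR adjusted p = 7.93e-11) and 3.54 ± 0.20 without library 4. Apart from library 4, the TME libraries lay within 10.1 to 18.7 CPM.

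Cdh5 (chr8:104101625-104144511) encodes VE-cadherin, the cadherin of endothelial junctions. It had 29.4, 8.98, 20.6 and 22.7 CPM in exercised TME libraries 7, 8, 9 and 10, and 119, 29.3, 28.3 and 21.8 CPM in sedentary TME libraries 4, 6, 9 and 10. Cancer libraries kept a measurable level, 2.78 to 7.997 CPM from 62 to 209 reads a library, which was higher per kilobase of exon than that of any other of the 8 genes there (1.28 ± 0.350 CPM per kilobase, SD, n = 15). The log2 difference between the sorts was 2.60 ± 0.25 (SE, edgeR adjusted p = 1.41e-08) and 2.21 ± 0.15 without library 4. Cdh5 lies opposite Gm29682, again with no exon shared.

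Cldn5 (chr16:18776847-18778262), a tight junction protein gene, had 6.04, 1.77, 3.53 and 6.61 CPM in exercised TME libraries 7, 8, 9 and 10, and 40.1, 7.34, 6.85 and 6.84 CPM in sedentary TME libraries 4, 6, 9 and 10. Cancer libraries held at most 0.908 CPM. Cldn5 was 39.1-fold higher in TME cells (edgeR adjusted p = 5.78e-10) and 27.7-fold higher without library 4. Library 4 stood highest here of all 10 genes, at 5.73 times the mean of the other 3 sedentary TME libraries.

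Robo4 (chr9:37401897-37415115) had 8.06, 1.86, 3.06 and 4.92 CPM in exercised TME libraries 7, 8, 9 and 10, and 22.5, 6.74, 4.31 and 4.47 CPM in sedentary TME libraries 4, 6, 9 and 10. The cancer libraries held 56 reads in all, and 4 of the 15 held none. The log2 difference was 5.31 ± 0.49 (SE, edgeR adjusted p = 4.49e-09) and 4.94 ± 0.45 without library 4. By fold, Robo4, Cldn5 and Tie1 led the 10 genes, and their intervals overlapped.

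**Figure D3:**
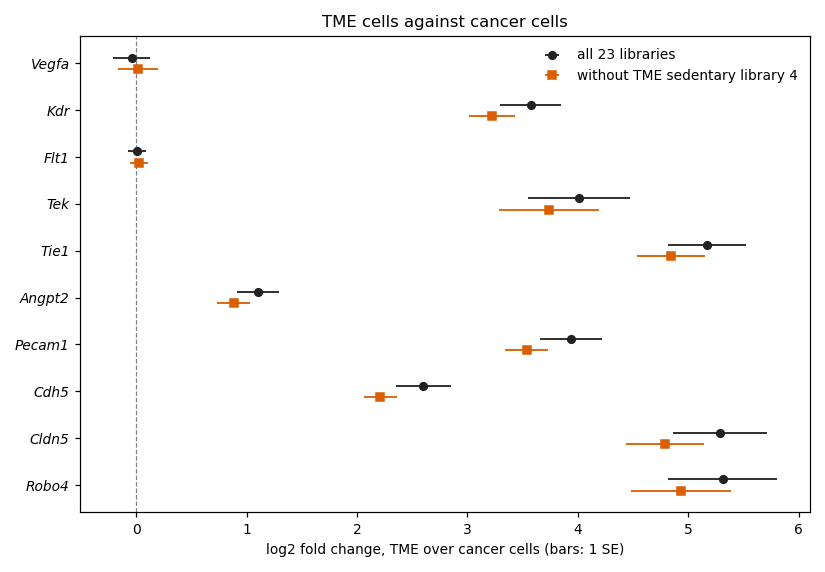
Log2 fold change of TME over cancer cells for the 10 genes with 1 SE, from edgeR with all 23 libraries (circles) and without sedentary TME library 4 (squares). Leaving out library 4 lowers each of the 8 higher genes, Cldn5 to 4.79 against 5.29 with all libraries, and Vegfa and Flt1 stay within 1 SE of 0.

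The wider endothelial lists are read against all genes tested, of which 25.3% were higher and 27.3% lower in TME cells. Of 28 genes of endothelial identity and adhesion, 24 were higher in TME cells and none lower (23 and 1 without library 4). Cd34 was higher by 5.01 ± 0.30 log2 units (SE), Gpihbp1, which anchors lipoprotein lipase in capillaries, by 6.19 ± 0.51, and the co-receptor gene Eng by 3.20 ± 0.20. Of 13 endothelial transcription factors, 10 were higher and 1 lower, with and without library 4, among them Sox18 (4.92 ± 0.51) and Erg (4.69 ± 0.57), while Lyl1 (4.22 ± 0.29) and Fli1 (4.09 ± 0.37) are also used by blood cells. Of 16 tested tip cell and Notch genes, 10 were higher and 2 lower (10 and 2 of 17 without library 4); the tip cell gene Esm1 was higher by 4.62 ± 0.52 and the Notch ligand gene Dll4 by 2.88 ± 0.28. Of 6 lymphatic endothelial genes 2 had enough counts for the test, and both were higher: Pdpn, which fibroblasts also express, by 3.66 ± 0.23, and Lyve1 by 3.17 ± 0.70. The 6 genes summed highest in exercised TME libraries 8 and 9 (21.0 and 30.3 CPM), which also had the highest macrophage marker sums. In library 4 they summed to 10.2 CPM, against a mean of 10.8 CPM in the other sedentary TME libraries. Which cells these transcripts come from was not tested.

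For genes that restrain vessel growth and for hypoxia targets, the shares called were near those of all genes (25.3% higher, 27.3% lower). Of 11 angiogenesis inhibitors, 3 were higher and 3 lower in TME cells, with and without library 4. Thbs2 was higher by 3.94 ± 0.38 log2 units (SE) and Serpinf1 by 0.88 ± 0.10, whereas Sema3a was lower, with -1.46 ± 0.13. Of 19 hypoxia targets, 4 were higher and 6 lower (4 and 5 without library 4); Adm, a vessel-active peptide gene, was higher by 4.23 ± 0.36, and Egln3, an oxygen sensor gene, was lower with -0.47 ± 0.07. In the Slit and Robo family, Slit3 was higher by 4.57 ± 0.48 and Robo1 lower with -0.77 ± 0.10.

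Exercise within the TME cells was compared next. In the fit of all 8 TME libraries, all 10 genes had log2 differences below 0, with a median of -0.91 against 0.01 for all genes tested. Leaving out sedentary TME library 4 changed this picture: 7 were below 0 and 3 above, with a median of -0.21 against 0.03. Leaving out libraries 4 and 6, the sedentary libraries with the highest mitochondrial shares, gave 5 below and 5 above 0 and a median of 0.00.

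No gene passed the adjusted threshold. edgeR called 0 of 16273 genes (0%), with 1373 at an unadjusted p under 0.05; limma voom called 0 and DESeq2 40, none of them among the 10. Tie1 and Cldn5 had an unadjusted p under 0.05 with all libraries. For Tie1 the log2 difference was -1.46 ± 0.61 (SE, edgeR adjusted p = 0.586), and without library 4 it was -0.70 ± 0.39 (edgeR adjusted p = 0.852). For Cldn5 the log2 difference was -1.76 ± 0.74 (SE, edgeR adjusted p = 0.586), and without library 4 it was -0.65 ± 0.39 (edgeR adjusted p = 0.852).

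The group means show how far library 4 set these values. Kdr averaged 12.5 ± 4.54 CPM in exercised TME cells (SD, n = 4) and 25.5 ± 22.4 CPM in sedentary TME cells (SD, n = 4), which became 14.4 ± 3.03 CPM without library 4 (n = 3). Pecam1 averaged 13.8 ± 4.07 CPM in exercised TME cells and 24.0 ± 23.1 CPM in sedentary TME cells, or 12.5 ± 2.17 CPM without library 4, so its direction turned. Cdh5 averaged 20.4 ± 8.51 CPM in exercised TME cells and 49.5 ± 46.2 CPM in sedentary TME cells, or 26.5 ± 4.09 CPM without library 4. Tek and Angpt2 turned in the same way as Pecam1, with log2 differences of 0.22 ± 0.38 and 0.26 ± 0.27 (SE) without library 4, against -0.45 ± 0.49 and -0.32 ± 0.39 with it.

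Cldn5 was the 1 gene of the 10 whose exercised TME libraries all lay below the sedentary ones, from 1.77 to 6.61 CPM in exercised libraries and from 6.84 CPM upwards in sedentary libraries. Leaving out library 4, the highest of the sedentary libraries at 40.1 CPM, could not change this and is no check of it. The sedentary libraries other than library 4 lay at 6.84 to 7.34 CPM. Over all genes tested, 1.78% had every exercised TME library below every sedentary one, and 2.81% when library 4 was left out. The gap between the groups for Cldn5 was 6.61 against 6.84 CPM at its narrowest, from exercised library 10 and sedentary library 10.

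**Figure D4:**
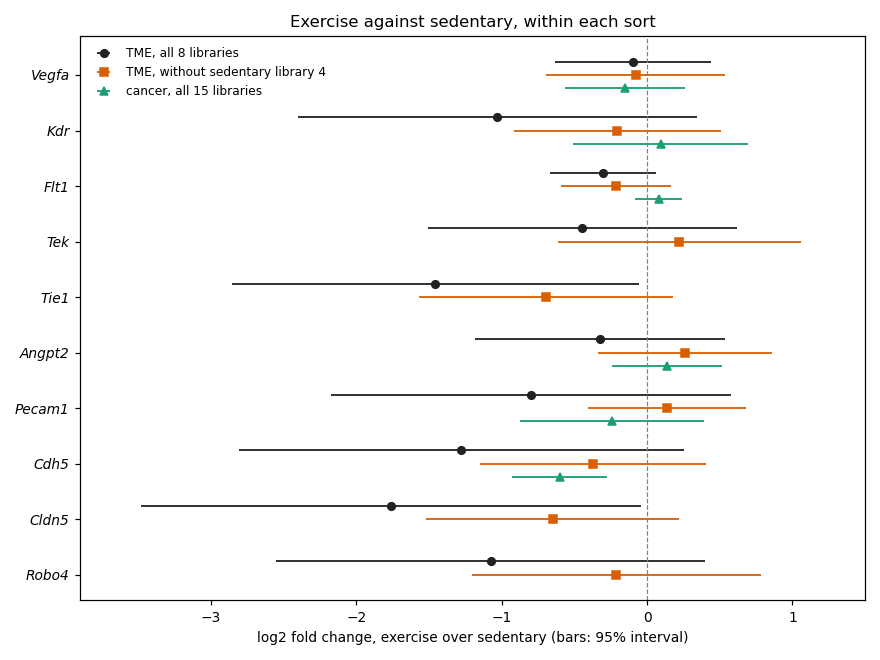
Log2 fold change of exercise over sedentary with 95% intervals in TME cells with all 8 libraries (circles), in TME cells without sedentary library 4 (squares) and in cancer cells (triangles; 4 genes had too few counts to be tested). With library 4 the TME values reach -1.76 for Cldn5; without it all 10 intervals include 0.

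Vegfa and Flt1, which were not raised in library 4 as the others were (1.02 and 1.22 times the mean of the other 3 sedentary TME libraries), changed little when it was left out. The exercise difference of Vegfa in TME cells was -0.10 ± 0.24 log2 units (SE), and -0.08 ± 0.27 without library 4. That of Flt1 was -0.30 ± 0.17, and -0.21 ± 0.17 without library 4. Neither was called, and the 95% interval of Flt1 without library 4 ran from -0.60 to 0.17.

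On the exercised side, library 8 was the lowest TME library for Kdr, Flt1, Tek, Tie1, Cdh5, Cldn5 and Robo4. Exercised libraries 8 and 9 had the highest macrophage marker sums, 2623 and 2933 CPM, against 512 and 619 CPM in exercised libraries 7 and 10 and 641 to 810 CPM in sedentary TME libraries. All 8 pan-leukocyte markers had exercise differences above 0 in TME cells, with a median of 1.14, and none was called. Mural cell markers summed to 176 to 235 CPM in exercised TME libraries and 266 to 344 CPM in sedentary TME libraries, and none of the 10 was called. Among single genes, 1.78% of those tested had every exercised TME library below every sedentary one. The mural sums were 205 to 288 CPM in exercised and 195 to 335 CPM in sedentary cancer libraries. They thus overlapped between the sorts and do not measure mural cells alone. The part of these cell types in the exercise differences of the endothelial genes was not tested.

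The 2 Tie receptor genes were also compared with each other within each library. Per kilobase of exon, Tie1 over Tek was 3.13, 2.07, 2.58 and 2.91 in exercised TME libraries 7, 8, 9 and 10, and 5.81, 5.63, 5.81 and 4.45 in sedentary TME libraries 4, 6, 9 and 10. All 4 exercised libraries lay below all 4 sedentary libraries, library 4 included among values like its own. This was 1 of 5 ratios computed and was picked out after its values were seen, so no test is given. The other ratios overlapped between exercised and sedentary TME libraries. Cldn5 over Cdh5, for example, was 0.508 to 0.862 in exercised and 0.718 to 1.003 in sedentary TME libraries. The share of all gene pairs that separate in this way was not computed. Tek counts behind it were 43 to 104 reads a library.

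The wider vascular lists moved to different extents when library 4 was left out. Of 27 tested genes of endothelial identity and adhesion, 23 were below 0 under exercise with all TME libraries (median -0.75) and 17 without library 4 (median -0.09), and none was called in either fit. The smallest p-values were those of Gpihbp1, with -2.04 ± 0.71 log2 units (SE; -0.94 without library 4), and Selp, the platelet and endothelial selectin gene, with 1.87 ± 0.73 (1.82 without library 4), both at an edgeR adjusted p of 0.586. Of 13 endothelial transcription factors, 8 were above 0 with all libraries (median 0.24) and 9 without library 4 (median 0.21). Sox17 had -2.13 ± 0.81 (-0.81 without library 4), Sox18 -1.54 ± 0.84 (-0.27) and Fli1 0.90 ± 0.52 (1.15). Among the tip cell and Notch genes, 11 of 16 were below 0 with all libraries (median -0.22) and 11 of 17 without library 4 (median -0.08). Dll4 was at -1.39 ± 0.68 (-0.43 without library 4), Dll1 at -0.40 ± 0.13 (-0.47) and Cxcr4 at 0.80 ± 0.36 (0.82). The other angiopoietin and Tie pathway genes had a median of -0.21 in both fits. Vegfb, with -0.50 ± 0.20 (-0.43 without library 4), had the smallest p of the other VEGF ligands and co-receptors.

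In cancer cells, 6 of the 10 genes had enough counts to be tested for exercise. Tek, Tie1, Cldn5 and Robo4 were left out by the filter on low counts, having 20, 47, 18 and 18 reads in all over the 7 exercised cancer libraries and 45, 68, 65 and 38 reads over the 8 sedentary cancer libraries. edgeR called 0 of 15096 genes (0%), with 1901 at an unadjusted p under 0.05; DESeq2 called 161 and limma voom 197. Cdh5 was the 1 gene of the 6 with an unadjusted p under 0.05.

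Cdh5 averaged 4.28 ± 0.771 CPM in exercised cancer cells (SD, n = 7) and 6.34 ± 1.25 CPM in sedentary cancer cells (SD, n = 8). The exercised libraries spanned 2.78 to 5.08 CPM with a median of 4.43, and the sedentary libraries 4.85 to 7.997 CPM with a median of 6.25, so the groups overlapped at their edges. The log2 difference was -0.60 ± 0.16 (SE; 95% interval -0.93 to -0.28), with an edgeR adjusted p of 0.133. DESeq2 gave an adjusted p of 0.0246 and limma voom 0.0409, so the call depends on the tool. Of the other endothelial markers tested, Egfl7 had the smallest p, with a log2 difference of -0.66 ± 0.35 (SE), and was not called.

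The other 5 tested genes were not called, and the 95% intervals of all 5 included 0. Vegfa had 459 ± 164 CPM in exercised cancer cells and 497 ± 112 CPM in sedentary cancer cells, a log2 difference of -0.15 ± 0.20 (SE; 95% interval -0.57 to 0.26). Flt1 had 349 ± 45.0 CPM in exercised cancer cells and 322 ± 24.6 CPM in sedentary cancer cells, a log2 difference of 0.08 ± 0.08. Kdr, Angpt2 and Pecam1 had log2 differences of 0.09 ± 0.29, 0.14 ± 0.18 and -0.24 ± 0.30. Of 18 tested hypoxia targets, 16 were below 0 in exercised cancer cells with a median of -0.09, against -0.01 for all genes, and none was called.

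The difference between the exercise effects in TME and cancer cells was tested as an interaction over all 23 libraries. edgeR called 0 of 17503 genes (0%), with 1316 at an unadjusted p under 0.05; DESeq2 called 2 and limma voom 40, none of them among the 10. Flt1 had the smallest p of the 10, with an effect in TME cells minus that in cancer cells of -0.40 ± 0.16 log2 units (SE, edgeR adjusted p = 0.591), and -0.31 ± 0.16 without library 4. For Cdh5 the value was -0.70 ± 0.51 with all libraries and 0.21 ± 0.31 without library 4, so its sign turned.

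The 8 genes higher in TME cells varied together across all 8 TME libraries, and less closely without library 4. Pearson's r of their log2 CPM over the 8 TME libraries had a median of 0.923 over 28 pairs, from 0.734 for Angpt2 with Cldn5 to 0.982 for Kdr with Cdh5. Without library 4 the median was 0.740 and the range -0.01 to 0.967, the highest value being that of Tie1 with Cdh5. Angpt2 and Pecam1 then followed each other (0.912) more closely than any other of the 8. With Cldn5 they had -0.01 and 0.126. In the 15 cancer libraries, where counts were low, the median was 0.047. Flt1 correlated with the 8 genes at a median of 0.578 in the 7 TME libraries other than library 4 and -0.039 in cancer libraries, and Vegfa at 0.511 and 0.012. These are descriptions over libraries that also differ in depth and cell makeup.

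Genes whose pattern was most like that of the mean of the 9 genes other than Vegfa were sought among 10970 genes over the 7 TME libraries other than library 4. The leading 8 were Col4a1 and Col4a2, the chains of basement membrane collagen (r = 0.987 and 0.977), the adhesion receptor gene Adgrf5 (0.984), Cdh13 (0.958), the Notch target Hey1 (0.943), Ptprb (0.943), Mmrn2 (0.942) and Ushbp1 (0.936). Over all 8 TME libraries r was 0.925 to 0.995 for these genes, and without the 2 libraries farthest from the median it was 0.599 to 0.852 over 5. The last 2 of the 10 most alike genes, Ddr2 and Hdac4, had 0.738 and 0.166 over all 8 libraries.

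Vegfa in cancer cells followed other genes. Over the 15 cancer libraries the 10 most alike of 10409 genes had r from 0.903 to 0.938, led by the metalloprotease gene Adam15 (0.938), the Wnt signalling gene Dvl2 (0.933), Enkd1 (0.931) and Ttyh3 (0.927). Without the 2 libraries farthest from the median these 4 genes had 0.863 to 0.916 over 13. Of 17 hypoxia targets among those genes, 11 had an r above 0.5 with Vegfa and 1 was below 0, with a median of 0.662 against -0.07 for all genes. The shares of all genes above 0.5 and below 0 were not computed, so the counts have no background beside them. P4ha2, a collagen prolyl hydroxylase gene, had 0.830, Bnip3 0.732, Ndrg1 0.718 and Ldha 0.715, while the pyruvate dehydrogenase kinase gene Pdk1 had -0.347. The cancer libraries also differ in depth, and these values are descriptions with no test. Exercised cancer library 10 had the highest Vegfa level of all libraries, 784 CPM, against 322 to 514 CPM in the other 6 exercised cancer libraries.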

How the data were processed

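Gene counts were deposited by the authors as 1 table of whole-number counts of 23 libraries, not normalized. Per the submitters' processing notes, STAR and featureCounts were used with the mm10 genome; their versions, the annotation and whether strand was used are not stated there. Per the labels, polyA RNA was made into libraries with a KAPA mRNA-Seq kit. All symbols entered the library totals; 16422 of 48397 had no count. Groups came from the sample titles.

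Genes were filtered with filterByExpr (minimum count 10), scaled by TMM and tested in edgeR 4.0.16 (R 4.3.3) by the robust quasi-likelihood test, two-sided, with Benjamini-Hochberg adjustment over all genes tested and a threshold of 0.05. The sort contrast and the interaction used all 23 libraries, and exercise was tested within each sort. The fits were tested on simulated counts. Alternatives were DESeq2 1.42.0, limma voom 3.58.1 with quality weights, relative log expression factors, other filters, mitochondrial genes left out, 1 joint fit, the replicate number as a block and single libraries left out in turn (each library of the exercise fits, and each TME library for the sort contrast and the interaction). log2 CPM used a prior count of 2; exon lengths came from GENCODE M21 (GRCm38), which matched 46394 symbols by name. Intervals cover the spread between libraries. Named list genes are up to 4 per list and contrast with the smallest p. The members and lists were chosen with earlier results of these data known.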

Additional observations from a re-analysis of the deposited data

Results flagged for a closer look

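Each gene was checked in each of the 4 groups for a library far from the rest of its group, judged by the gap to its neighbour over the group's range (Dixon's 95% criterion). Of 40 such checks 15 were met, and 8 of the 15 were sedentary TME library 4. The high endothelial level of that library was known when the genes were chosen, so its 8 entries are a description and are not set against chance, which meets the criterion in about 1 of 20 groups. The values of that library were 58.9 CPM for Kdr, 7.58 for Tek, 45.9 for Tie1, 13.9 for Angpt2, 58.6 for Pecam1, 119 for Cdh5, 40.1 for Cldn5 and 22.5 for Robo4, each the highest of 4. The next highest sedentary TME libraries had 17.9, 2.29, 13.4, 5.30, 15.1, 29.3, 7.34 and 6.74 CPM for the same genes in that order. Its mitochondrial share was 42.2% of counts.

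In exercised TME cells, Kdr in library 8 was far below its group, at 5.69 CPM against 14.4 CPM in the next library. In exercised cancer cells, Vegfa in library 10 stood out at 784 CPM, and Tek in library 7 at 0.443 CPM. In sedentary cancer cells, Tek reached 1.02 CPM in library 4, Tie1 0.790 CPM in library 6, Cldn5 0.908 CPM in library 5 and Robo4 0.894 CPM in library 9, each the highest of 8 and each from at most 20 reads.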

How the results depend on the processing

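The 8 genes called between TME and cancer cells kept their direction and call under all 18 alternatives. Vegfa and Flt1, not called, changed sign around 0. For Vegfa the value was 0.0094 with DESeq2, 0.0094 with relative log expression and 0.026 with only genes averaging 1 CPM or more, and -0.12 to 0.067 leaving out single TME libraries. For Flt1 it was -0.082 with limma voom, -0.041 with the replicate block, -0.20 within exercised libraries, and -0.020 to 0.086 leaving out single TME libraries.

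For exercise in cancer cells, 161 genes were called with DESeq2, 197 with limma voom, 28 with no filter and 1 with all 23 libraries in 1 fit, and 0 to 43 leaving out single libraries, with 43 reached without sedentary cancer library 4. DESeq2 and limma voom each called 1 of the 10 genes, Cdh5. Kdr ranged over -0.021 to 0.26 leaving out single libraries, Flt1 was -0.0045 with limma voom and Pecam1 0.048 with the replicate block.

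For exercise in TME cells, 40 genes were called with DESeq2 and 6 with no filter. The replicate block compares only equally numbered libraries, here 9 and 10 of each treatment, so sedentary library 4 has no part in its differences. With the replicate block, Vegfa was at 0.056, Kdr at 0.19, Tek at 0.22, Angpt2 at 0.19 and Pecam1 at 0.14. Without sedentary libraries 4 and 6, an alternative chosen after seeing the data, Vegfa was at 0.053, Tek at 0.25, Angpt2 at 0.38, Pecam1 at 0.29 and Robo4 at 0.026. Leaving out single libraries gave -0.37 to 0.055 for Vegfa, -0.71 to 0.22 for Tek, -0.51 to 0.26 for Angpt2 and -1.04 to 0.14 for Pecam1.

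For the difference of the effects, DESeq2 called 2 genes, limma voom 40 and the replicate block 14, and 0 to 52 were called leaving out single TME libraries, with 52 reached without exercised TME library 7. Cdh5 was at 0.29 without sedentary TME libraries 4 and 6, and at -0.91 to 0.21 leaving out single TME libraries. The cause of these changes was not tested. Whether equal replicate numbers mark the same tumour is not given in the sources used here. Residuals of equally numbered TME and cancer libraries of the same treatment correlated at -0.20 to 0.38 (Pearson's r). The lowest value was that of sedentary library 4. Equally numbered exercised and sedentary libraries correlated at -0.13 to 0.37. Since r was not above 0.1 in every pair, the main fits did not pair the libraries. Unequally numbered libraries were not compared, so these values do not decide whether the numbers mark a shared tumour. The main p-values treat the sorts as independent. The block called 0 of the 10 genes for exercise in either sort. For exercise it compares only equally numbered libraries, which in TME cells are 9 and 10 of each treatment. With so few libraries left to measure the spread, the lack of calls in TME cells decides nothing.

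With 4 TME libraries a group and 1 of them apart, the exercise values of the endothelial genes have wide intervals. Tek, Tie1, Cldn5 and Robo4 had too few reads in cancer cells for a test of exercise. Gene-level counts give no isoforms.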
